A study of Anoectochilus roxburghii with 9 samples.

Results

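A set of 58 assembled genes was at or near 0 counts in control leaves of Anoectochilus roxburghii, a medicinal orchid, and was counted in every leaf library of 2 overexpression groups. Membership was read from the deposited counts. A gene was taken when each of the 6 overexpression libraries held at least 5 of its counts and the 3 control libraries held at most 3 in all. The rule took 58 of 85512 genes in the table, or 0.0678%. Their absence from control leaves and their presence under both constructs are therefore what chose them, and those levels are given as a description with no test.

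The leaves, wild type by genotype, were sampled at day 3 of a transient overexpression, with 3 libraries per group. The groups were overexpression of ArPHR4, overexpression of ArPHR2, and an empty vector (EV), which shared the treatment. A deposited list of library names calls the constructs ArPHR4-YFP, ArPHR2-YFP and PHB-YFP. The sources used here give neither the promoter, the way of delivery nor the age of the plants. They also leave out whether each library is a plant of its own, so the p-values speak for the variation among the 9 libraries, which may be technical.

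PHR proteins are MYB-type transcription factors that, in other plants, bind a short element in the promoters of phosphate starvation genes and switch those genes on. SPX proteins hold them inactive while phosphate is plentiful. Known targets in Arabidopsis and rice include phosphate transporters, acid phosphatases and enzymes that replace membrane phospholipids with other lipids. The design asks which leaf genes respond to each of the orchid's factors, and genes that go from silence to detection under both are among the candidates it can return. The files pair no ID with a gene name, a function, a position or a sequence. The IDs have the form written by the Trinity assembler, in which the part before the last number (g1, g2 and so on) names an assembly component, a cluster of overlapping sequence. Whether any member is a known phosphate starvation gene, and how far the leaf material matched its label by marker genes, was not analysed here, and neither were the levels of the ArPHR4 and ArPHR2 transcripts.

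The libraries were even in depth, with 16032716 to 16757000 counts in ArPHR4, 16529182 to 17244083 in ArPHR2 and 16488391 to 16547194 in EV. CPM values are counts scaled to library size by the TMM method of edgeR.

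All 58 members together were a very small part of the leaf transcriptome. They summed to 81.9, 79.3 and 82.2 CPM in the ArPHR4 libraries numbered 1, 2 and 3, to 71.7, 62.5 and 65.6 CPM in the ArPHR2 libraries, and to 1.34, 2.02 and 1.75 CPM in the EV libraries. Every ArPHR4 library was above every ArPHR2 library in this sum, and EV was kept near 0 by the rule. The share of all counts was 0.00834% in ArPHR4 and 0.0067% in ArPHR2. In bulk leaf RNA, more cells that express a gene and more of its RNA per cell cannot be told apart.

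The rule asked for at least 5 counts in every overexpression library, so no library could carry the set by itself. That minimum also removes low values and can narrow the spread given below. After scaling, 19, 20 and 19 members had their highest ArPHR4 value in library 1, 2 and 3, and 21, 16 and 21 had their highest ArPHR2 value in library 1, 2 and 3. The median coefficient of variation between libraries of a group was 24.8% in ArPHR4 and 30.8% in ArPHR2. The true spread from counting alone would have a median of 25.2% and 27.4% at these depths, if the deposited counts are whole reads. A coefficient taken from 3 libraries tends to fall below its true value. The 2 kinds of figure are therefore not a like comparison, and no excess or lack of spread is read from them.

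**Figure D1:**
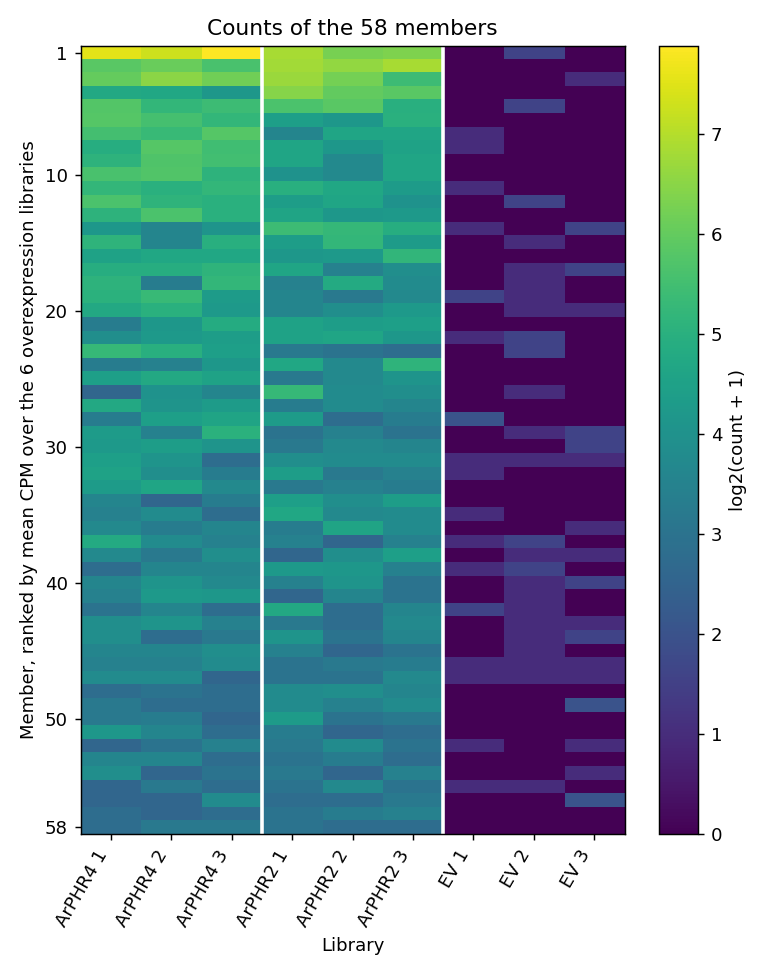
Counts of the 58 members (rows, ranked by mean CPM over the 6 overexpression libraries) in the 9 libraries (columns), coloured by log2(count + 1). The ArPHR4 and ArPHR2 columns are filled throughout, most strongly in the top rows, and the EV columns hold 0 to 3 counts, as the rule requires.

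In the EV leaves 19 members had 0 counts over the 3 libraries. A further 13 had 1 count, 10 had 2 and 16 had 3, which makes 81 counts over the whole set. These counts were spread over the libraries, with 17, 25 and 18 members seen in EV libraries 1, 2 and 3. A count of 0 over EV allows a level of up to 0.0631 CPM (3 counts over the 3 libraries, counting error only). For these 19 members "silent" therefore means below this depth and not an absence of transcript. The other members were seen in EV at 1 to 3 counts, and their level there may lie above this limit.

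The members were low in the overexpression leaves too. The mean over the 3 libraries ran from 0.335 to 11.4 CPM in ArPHR4, with a median of 0.934, and from 0.373 to 6.31 CPM in ArPHR2, with a median of 0.79. The median over all 35571 genes tested was 1.93 CPM in ArPHR4 and 1.96 CPM in ArPHR2. At least 2 CPM was reached by 12 members in ArPHR4 and 6 in ArPHR2, and at least 5 CPM by 1 and 2. For the 19 members with 0 EV counts, the level was 5.31 to 53.7 times the EV limit of 3 counts in ArPHR4. In ArPHR2 it was 5.91 to 99.9 times that limit. The counting error of the overexpression counts is left out of these folds. For the other 39 members the ratio to EV ran from 6.24 to 269 in ArPHR4 and from 6.22 to 204 in ArPHR2. The lower ends of their exact 95% intervals, for counting error only, went down to 1.852 in ArPHR4 and 1.845 in ArPHR2. Both groups are set against the same EV libraries, and the rule itself fixes that they lie above them.

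The limits of the rule cut through a continuum of genes. Just inside it, 16 members had exactly 3 EV counts, with a mean of 7.17 to 25.2 counts per overexpression library, and just outside it 30 genes had 4 EV counts, with 6.5 to 84.0. Likewise 14 members had a lowest overexpression count of 5, and 34 genes missed with a lowest count of 4. The same thresholds gave sets of other sizes for the other patterns. There were 32 genes seen in ArPHR2 and EV but not in ArPHR4, and 4 seen in ArPHR4 and EV but not in ArPHR2. In 1 group alone, 30 were seen in ArPHR4, 336 in ArPHR2 and 41 in EV. Of genes with at most 3 EV counts, far more thus met the pattern of ArPHR2 alone than that of both constructs, and fewer that of ArPHR4 alone. The pattern of both sets its minimum in 6 libraries. That of 1 construct sets it in 3 and allows at most 3 counts over the other construct, so the criteria are unlike. The sizes are counts past a threshold, and no test was made between them.

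By the length that counts and FPKM imply, the members tended to be shorter than the tested genes. Dividing a count by the deposited FPKM (fragments per kilobase of transcript, scaled to depth) gives the length that the authors' scaling implies. This is not a measured transcript length, and its lowest values are too small to be one. The tested genes were not matched to the members' low counts. The median implied length was 413 bases over the members and 711 bases over 35564 tested genes with a value. It was under 1000 bases in 93.1% of members against 64.8% of tested genes, under 300 bases in 36.2% against 20.2%, and under 100 bases in 13.8% against 6.77%. The longest was 1733 bases, in the member ranked 3 by CPM. Among the 50 members with at least 100 bases, the mean FPKM ran from 0.543 to 20.5 in ArPHR4 and from 0.717 to 32.8 in ArPHR2, with medians of 2.4 and 1.74. Tested genes of at least 100 bases had median FPKM of 4.21 in ArPHR4 and 3.92 in ArPHR2, so by length as well as by counts the typical member lay below the typical tested gene. The other 8 members reached FPKM of up to 265 in ArPHR4 and 258 in ArPHR2 on low counts. Their implied lengths went down to 5.24 bases, so these FPKM values rest on a very small divisor.

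The member with most counts was TRINITY_DN6039_c0_g1, which has no other ID in its component. It had 11.0, 8.91 and 14.1 CPM in the ArPHR4 libraries, 6.46, 4.43 and 4.89 CPM in the ArPHR2 libraries, and 0, 0.126 and 0 CPM in the EV libraries. The 3 groups did not overlap. It alone supplied 14.0% of the members' counts in ArPHR4. Per length its mean FPKM was 13.2 ± 3.29 in ArPHR4 and 5.81 ± 1.27 in ArPHR2 (SD, n = 3).

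The next by counts was TRINITY_DN4065_c0_g1, also the only ID of its component. It had 3.34, 3.90 and 2.90 CPM in the ArPHR4 libraries and 6.29, 5.66 and 6.97 CPM in the ArPHR2 libraries, with 0 counts in each EV library. Here ArPHR2 was the higher group, with no overlap. The level was 53.7 times the EV limit of 3 counts in ArPHR4 and 99.9 times that limit in ArPHR2. Among the members of at least 100 bases it had the highest mean FPKM in both groups, 20.5 ± 1.72 in ArPHR4 and 32.8 ± 5.53 in ArPHR2 (SD, n = 3).

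**Figure D2:**
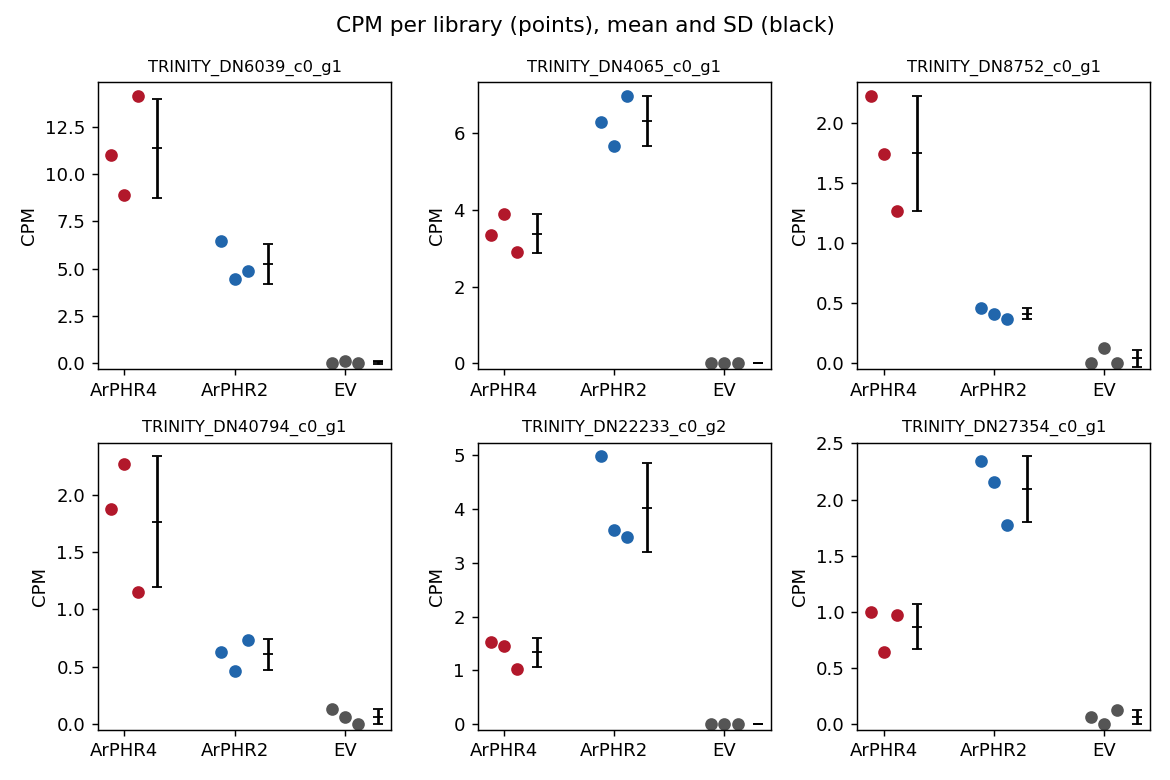
CPM of the 6 members named in the text, with a point per library and the mean ± SD in black (n = 3), for ArPHR4, ArPHR2 and EV from left to right on separate linear axes. TRINITY_DN6039_c0_g1, TRINITY_DN8752_c0_g1 and TRINITY_DN40794_c0_g1 are higher in ArPHR4 than in ArPHR2, the other 3 are lower, and EV lies at or near 0.

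The rule set the same minimum for both constructs and did not use the contrast between them, which was tested. It does bound that contrast, since a gene under 5 counts in any library of either construct cannot be a member. The genes given as background were not held to this minimum, so their shares are a description beside the members' and not a like comparison. In ArPHR4 leaves 8 members were higher and 3 were lower than in ArPHR2 leaves (edgeR quasi-likelihood test, adjusted p under 0.05, adjusted over all 35571 genes tested). The 8 are 13.8% of the members, against 12.1% of all genes tested that were higher, and the 3 are 5.17%, against 12.6% of all genes tested that were lower. In either direction, 19.0% of the members were called, against 24.7% of all genes. Of the 15893 genes whose mean CPM over the overexpression libraries lay within the members' range, 7.98% were higher and 9.27% lower. In either direction 17.3% of those genes were called.

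The remaining 47 members had no call. Their log2 differences ran from -1.12 to 1.35 with a median standard error of 0.59 on the same scale. Missing calls do not show that the constructs acted alike on them. Of the 20 members with the highest mean CPM, 10 were called, and of the other 38 only 1 was. The shares called among all genes at those levels were not computed, so nothing particular to the members is read from this split. Over all 58 the log2 difference was above 0 in 37 and below 0 in 21, with a median of 0.24, against -0.01 over all genes tested. The 3 ArPHR4 and 3 ArPHR2 libraries did not overlap in 18 members that were higher and 7 that were lower in ArPHR4, which are 31.0% and 12.1% of the set, against 17.8% and 18.5% of all genes tested.

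The number of higher members rests on few libraries. It was 4 without ArPHR4 library 2, 5 without ArPHR4 library 3, 4 without ArPHR2 library 1 and 3 without ArPHR2 library 2. The number of lower members was 2 or 3 when any library was left out.

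**Figure D3:**
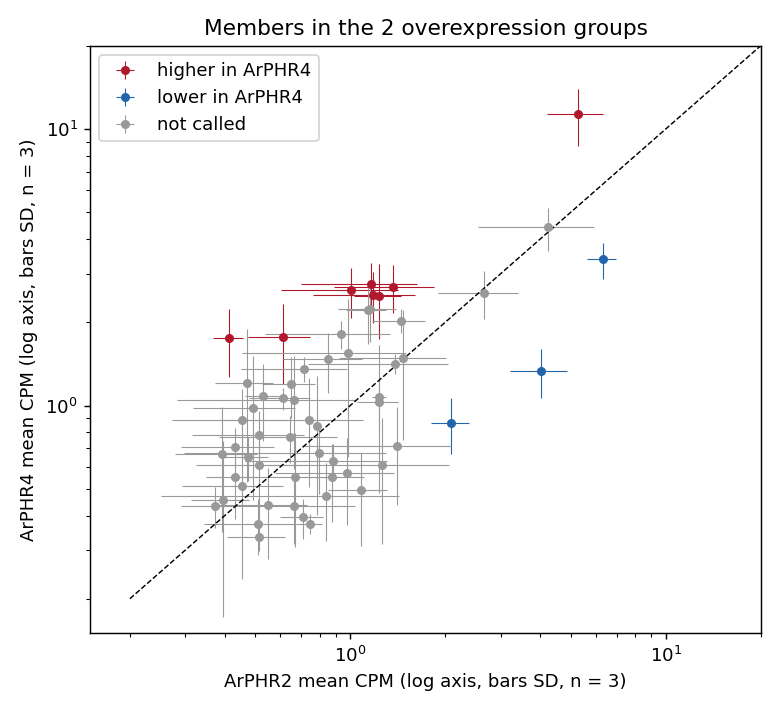
Mean CPM of the 58 members in ArPHR4 (vertical) against ArPHR2 (horizontal), both on log axes, with SD bars (n = 3) and a dashed line of equality. The 8 members called higher in ArPHR4 lie above the line and the 3 called lower lie below it. The members without a call lie on both sides of the line, mostly near or below 1 CPM and with wide bars. Their log2 differences run from -1.12 to 1.35.

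The largest difference upward was in TRINITY_DN8752_c0_g1. It had 38, 30 and 21 counts in the ArPHR4 libraries, 8, 7 and 6 counts in the ArPHR2 libraries, and 0, 2 and 0 counts in the EV libraries. Each ArPHR4 library was far above each ArPHR2 library. The log2 difference was 2.07 ± 0.52 (SE, edgeR adjusted p = 0.00381), and the call held whichever library was left out. Its implied length was only 7.15 bases, so its FPKM rests on a very small divisor. On that FPKM with limma the adjusted p was 0.182 with a pseudocount of 1 and 0.441 with 0.1.

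TRINITY_DN40794_c0_g1 followed, with 32, 39 and 19 counts in the ArPHR4 libraries, 11, 8 and 12 counts in the ArPHR2 libraries, and 2, 1 and 0 counts in the EV libraries. The groups did not overlap, but ArPHR4 library 3 was well below the others of its group. The log2 difference was 1.52 ± 0.48 (SE, edgeR adjusted p = 0.0182). The adjusted p was 0.0598 without ArPHR4 library 1, 0.117 without ArPHR4 library 2 and 0.0701 without ArPHR2 library 2. On FPKM with limma it was 0.0768 with a pseudocount of 1 and 0.256 with 0.1.

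TRINITY_DN6039_c0_g1, described above, was also among the members higher in ArPHR4, with a log2 difference of 1.11 ± 0.21 (SE, edgeR adjusted p = 0.00018). With limma on log2(FPKM + 0.1) its adjusted p was 0.143. The other 5 higher members had log2 differences between 0.98 and 1.37 and lay at ranks 6 to 10 by CPM.

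The 3 members that were lower in ArPHR4 included the second by counts, TRINITY_DN4065_c0_g1, with a log2 difference of -0.90 ± 0.23 (SE, edgeR adjusted p = 0.00385). With limma on log2(FPKM + 0.1) its adjusted p was 0.0515. The largest difference downward was in TRINITY_DN22233_c0_g2. It had 26, 25 and 17 counts in the ArPHR4 libraries and 87, 62 and 57 counts in the ArPHR2 libraries, with 0 counts in each EV library. The log2 difference was -1.59 ± 0.31 (SE, edgeR adjusted p = 0.000376), and it was called under every one of the 17 other settings tried.

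TRINITY_DN27354_c0_g1 was the next, with 17, 11 and 16 counts in the ArPHR4 libraries, 41, 37 and 29 counts in the ArPHR2 libraries, and 1, 0 and 2 counts in the EV libraries. The groups did not overlap. The log2 difference was -1.26 ± 0.41 (SE, edgeR adjusted p = 0.0237). The adjusted p was 0.0918 without ArPHR4 library 2, 0.0945 without ArPHR2 library 1 and 0.07 without ArPHR2 library 2. It was 0.0514 with no filter on low counts, and on FPKM with limma 0.519 with a pseudocount of 1 and 0.735 with 0.1. Its implied length was 7.43 bases.

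Some members hold a small share of the counts of their assembly component. In most components with other IDs, the silence of the member in EV did not extend to the component. The 58 members lie in 57 components, since TRINITY_DN1656_c1 holds 2 of them. In 27 components there were other IDs, 48 in all, which are called relatives below. Relatives can share reads with a member. Summing counts over a component changes nothing where there is no other ID. Of the 27 components with relatives, 8 still met the rule on summed counts. In the other 19 the relatives brought in enough EV counts to break it. With the components that hold no relative, 38 of the 57 met the rule. Of the 28 members with a relative, 14 held over 50% of their component's counts in ArPHR4 and 14 in ArPHR2, while 6 held under 5% in ArPHR4 and 7 in ArPHR2.

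The relatives were not chosen by the rule, and 26 of the 48, from 16 components, had the 30 counts needed for a test. Against EV, 12 of the 26 were higher and 3 were lower in ArPHR4, and 12 were higher and 1 was lower in ArPHR2 (edgeR, adjusted p under 0.05). Among all genes tested 20.7% were higher and 20.3% lower than EV in ArPHR4, and 17.5% were higher and 16.2% lower in ArPHR2. A set of 10 relatives from 7 components was higher in both groups, which share the EV libraries. The share of all genes tested that was higher in both groups was not computed. The median log2 difference from EV over the 26 relatives was 1.10 in ArPHR4 and 1.04 in ArPHR2, against 0.01 and 0.03 over all genes. A relative with few EV counts could reach 30 counts only through the overexpression libraries, and relatives of 1 component are not independent, so these counts describe the components and support nothing about the members.

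**Figure D4:**
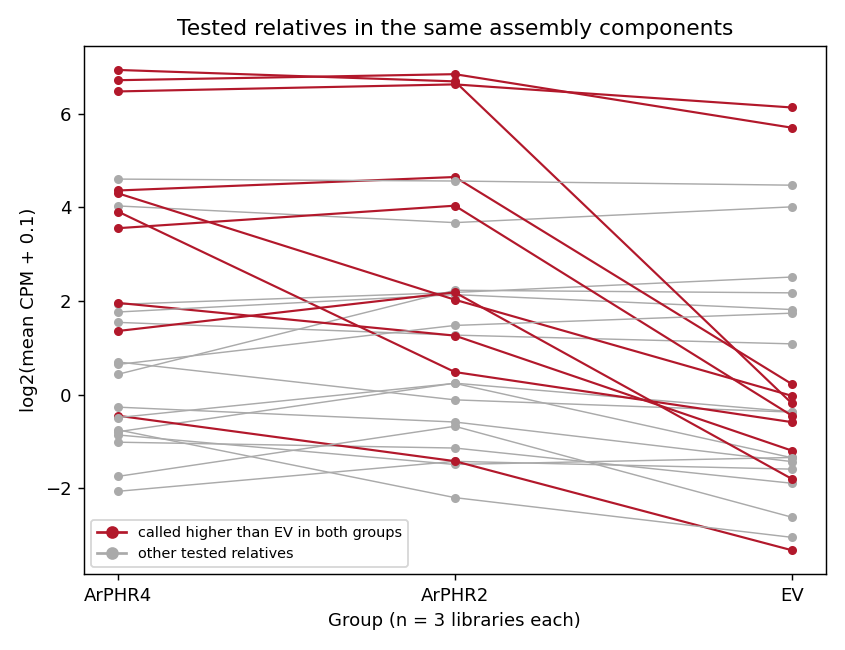
Mean level of the 26 tested relatives, as log2(mean CPM + 0.1), in ArPHR4, ArPHR2 and EV (n = 3 libraries each), with a line per relative. The 10 relatives called higher than EV in both groups (red) include 1 that lies above 100 CPM in both overexpression groups and below 1 CPM in EV, while others are abundant in EV as well.

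Of the relatives with more than 3 EV counts, 3 were higher than EV by over 4 on the log2 scale in both groups. They come from 2 components, and the most abundant of each is named here after its values were seen. TRINITY_DN888_c0_g3 had 117, 127 and 121 CPM in the ArPHR4 libraries, 105, 107 and 97.5 CPM in the ArPHR2 libraries, and 1.15, 0.504 and 0.686 CPM in the EV libraries. It was higher than EV by 7.28 ± 0.12 on the log2 scale in ArPHR4 (SE, edgeR adjusted p = 7.70e-27) and by 7.04 ± 0.12 in ArPHR2 (edgeR adjusted p = 7.01e-26). It has an implied length of 1519 bases and a mean FPKM of 82.8 ± 5.06 in ArPHR4, 68.5 ± 3.19 in ArPHR2 and 0.54 ± 0.164 in EV (SD, n = 3). The member of its component had 19, 24 and 12 counts in the ArPHR4 libraries and 8, 10 and 9 counts in the ArPHR2 libraries, which is 0.869% and 0.498% of the component. Another ID of the component, TRINITY_DN888_c0_g1, was lower than EV in ArPHR4, with a log2 difference of -1.14 ± 0.29 (SE, edgeR adjusted p = 0.00205).

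TRINITY_DN41514_c0_g2 had 358, 349 and 330 counts in the ArPHR4 libraries, 474, 413 and 386 counts in the ArPHR2 libraries, and 9, 23 and 19 counts in the EV libraries. It was higher than EV by 4.24 ± 0.18 on the log2 scale in ArPHR4 (SE, edgeR adjusted p = 2.92e-17) and by 4.53 ± 0.18 in ArPHR2 (edgeR adjusted p = 8.95e-18). Both other relatives in this component were higher than EV in both groups as well. The member made up 1.41% of the component in ArPHR4 and 2.31% in ArPHR2, and its implied length of 5.24 bases was the shortest of the set. In these 2 components the member was thus a minor ID beside a relative far above its own EV level. Whether reads of the relative were assigned to the member was not tested. A relative in a further component had 16, 4 and 12 counts in the ArPHR4 libraries, 4, 7 and 3 in the ArPHR2 libraries and 0 in each EV library, so its fitted difference from EV, though larger than that of TRINITY_DN41514_c0_g2, depends on the model's handling of 0 counts.

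In 4 components the member appeared beside a relative with at least 100 counts in each EV library. In the first of them that relative had log2 differences from EV of 0.02 in ArPHR4 and -0.34 in ArPHR2, and it was lower in ArPHR2 (edgeR adjusted p = 0.0239) with no call in ArPHR4. In the second they were 0.13 and 0.09, with no call in either group. In the third they were 0.34 and 0.49, and it was higher in both (edgeR adjusted p = 6.37e-06 and 1.81e-08). The fourth, with the largest differences of the 4, is described in full. The member ranked 3 by CPM made up 4.02% of its component in ArPHR4, 3.59% in ArPHR2 and 0.0405% in EV. Its main relative had 105 ± 1.83 CPM in ArPHR4, 115 ± 2.65 CPM in ArPHR2 and 51.9 ± 3.01 CPM in EV (SD, n = 3), and it rose by a log2 difference of 1.02 ± 0.053 in ArPHR4 and 1.14 ± 0.053 in ArPHR2 (SE, edgeR adjusted p = 3.45e-15 and 4.11e-16). In TRINITY_DN1656_c1 the members made up 19.9% and 7.49% of the component in ArPHR4, 6.95% and 4.44% in ArPHR2, and 0% and 0.21% in EV. The relative TRINITY_DN1656_c1_g2 had 30, 27 and 7 counts in the ArPHR4 libraries, 108, 46 and 80 in the ArPHR2 libraries, and 72, 39 and 99 in the EV libraries. It was lower in ArPHR4 than in EV by a log2 difference of -1.81 ± 0.38 (SE, edgeR adjusted p = 0.000286) and had no call in ArPHR2 (0.06 ± 0.33, edgeR adjusted p = 0.926).

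Of the 11 members called between the constructs, 2 have a relative that was called too, and the pairs went different ways. TRINITY_DN22233_c0_g2 was lower in ArPHR4 than in ArPHR2, while its relative TRINITY_DN22233_c0_g1 was higher. The relative had 241, 251 and 265 counts in the ArPHR4 libraries, 25, 17 and 24 in the ArPHR2 libraries, and 2, 16 and 9 in the EV libraries, a log2 difference between the constructs of 3.52 ± 0.25 (SE, edgeR adjusted p = 1.20e-11). The member made up 8.02% of its component in ArPHR4 and 72.3% in ArPHR2. TRINITY_DN8752_c0_g1 and its relative TRINITY_DN8752_c0_g2 were both higher in ArPHR4. That relative had 334, 351 and 310 counts in the ArPHR4 libraries, 71, 55 and 76 in the ArPHR2 libraries, and 14, 12 and 16 in the EV libraries, with a log2 difference of 2.30 ± 0.16 (SE, edgeR adjusted p = 4.63e-12). The member's share was 8.21% in ArPHR4 and 9.42% in ArPHR2, so here member and relative kept nearly 1 ratio.

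Implied length was compared between the constructs in the 4 members with at least 20 counts in every overexpression library. None was called (limma, adjusted over 17686 genes, of which 0.0339% were called), and 1 of the 4 had an unadjusted p under 0.05. In TRINITY_DN6039_c0_g1 the implied length was 888 ± 12.6 bases in ArPHR4 and 913 ± 9.04 bases in ArPHR2 (SD, n = 3), a log2 difference of -0.01 ± 0.017 after centring (SE, limma adjusted p = 0.823). In TRINITY_DN4065_c0_g1 it was 171 ± 32.7 bases in ArPHR4 and 198 ± 42.3 bases in ArPHR2, a log2 difference of -0.18 ± 0.22 (SE, limma adjusted p = 0.683). That estimate is too wide to show a small shift.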

How the data were processed

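Messenger RNA of 9 leaf libraries was measured, 3 per group, as the titles place them. The counts deposited by the authors are whole numbers per assembled gene, and the FPKM values deposited by the authors stand beside them, per the file headers. Whether the counts are reads or rounded estimates that divide reads among transcripts is not known. If estimates, the expected counting error, the floor of 3 counts and levels of 0 to 3 counts are only approximate. Aligner, counting tool, assembler and strand setting: not given in the sources used here. Per-library columns left unused numbered 0. Genes with at least 30 counts over the 9 libraries (35571, all 58 members among them) entered edgeR 4.0.16 (R 4.3.3), with TMM scaling, 1 quasi-likelihood model of 3 group means and Benjamini-Hochberg adjustment over all genes tested. The default expression filter of edgeR would have kept 46 members. Standard errors are the log2 difference divided by the square root of F. Implied length was tested with limma 3.58.1 on log2(count / FPKM). DESeq2 1.42.0, other scalings, filters, FPKM with limma and left-out libraries were tried as alternatives. Floors of 3 counts cover counting error only.

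The members, lists and tests were chosen with earlier results of these data known. IDs printed are the 2 members with the highest mean CPM over the overexpression libraries and, among members called between the constructs without overlap, the 2 with the largest difference each way. Relatives named in the text were picked after their values were seen. Gene lists and cell type markers planned on gene descriptions could not be applied. Libraries with the same number were not paired: their deviations correlated with r of -0.0057 to 0.0288.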

Additional observations from a re-analysis of the deposited data

How the results depend on the processing

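The number of members higher in ArPHR4 than in ArPHR2, 8 as reported, was 5 with upper-quartile scaling, 5 with DESeq2, 5 without a filter, 3 with limma on log2(FPKM + 0.1), 10 with only the 2 groups compared in the fit, and 3 to 8 when each library was left out. The number lower, 3 as reported, was 1 with limma on log2(FPKM + 0.1), 4 with limma on log2(FPKM + 1) and 2 to 3 when each library was left out. The cause was not tested. Of the 11 calls, 4 were made in all 9 fits that left out a library, and 1 in all 17 alternatives. Limma on log2(FPKM + 1) called 12 members, 7 of them among the 11. No named member changed direction under any of them. With the replicate number as a block, 7 members were higher and 3 lower, and 14 and 13 relatives were called against EV in ArPHR4 and ArPHR2, against 15 and 13 without it. Calls among relatives numbered 13 to 16 in ArPHR4 and 9 to 13 in ArPHR2 over all settings. No member was called for implied length by limma under the 9 alternatives run. The rule itself gave 19 members at a minimum of 10 counts, 184 at 3 counts, 19 with 0 EV counts, 135 with up to 6 EV counts, and, by settings chosen after seeing the data, 43 components on summed counts and 65 to 94 members with a library left out (94 without EV library 3). Leaving out a library loosens the rule, so the number of members could then only stay the same or rise. At the main minimum of 20 counts in every overexpression library, implied length was compared in only 4 members. A minimum of 10 counts was among the alternatives.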
